A study of Bos taurus with 17 samples.

Results

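Fibroblast growth factor (FGF) receptor genes, 2 FGF ligand genes and 4 genes known to respond to the kinase ERK were followed through 17 bovine morula libraries. The 10 genes were taken by symbol, namely FGF2, FGF4, FGFR1, FGFR2, FGFR3, FGFR4, DUSP6, SPRY2, ETV4 and ETV5, and 9 of them had a row among the 17167 genes of the deposited table. FGF2 was not analysed here. Each library came from a pool of 10 bovine preimplantation embryos that had developed in vitro to the morula stage. Recombinant WNT5A had been added for 8 pools, and the other 9 were controls. The sources used here give neither the dose nor the timing of WNT5A. Nor do they state if each pool was its own round of fertilisation, so the p-values describe the spread between pools. Levels are RPKM, reads per kilobase of exon scaled to library size, which can be set side by side between genes.

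FGFs are secreted ligands that bind receptor tyrosine kinases together with heparan sulphate, and the activated receptor signals through the adaptor FRS2, RAS, RAF and MEK to ERK. In the mouse blastocyst, FGF4 from the epiblast acts on neighbouring inner cells and promotes primitive endoderm, and in cattle added FGF4 with heparin also favours hypoblast, the equivalent layer. ERK activity is held in check by genes that it induces itself, among them the phosphatase gene DUSP6 and the Sprouty gene SPRY2, and the ETS factor genes ETV4 and ETV5 are widely used as readouts of FGF signalling. WNT5A itself belongs to another ligand family, which signals through Frizzled and ROR receptors.

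Depth, recovered from the RPKM, was 34.0 to 200.1 M reads per library. WNT5A libraries 4, 12 and 14 were the shallowest, at 34.0 to 52.4 M. Control libraries 2, 3 and 6 had reads on the fewest genes, 10055 to 11268. Both sets stand apart from the rest, and members' log2 changes that rest on them are given with and without them. All 15 embryo markers looked for, such as POU5F1 and CDX2, averaged 1 RPKM or more over the 17 libraries. Cumulus and granulosa markers summed to 1.17 to 3.38 RPKM in WNT5A pools and to 0 to 7.95 RPKM in controls, over 6 genes of which AMH alone averaged 1 RPKM or more. Blood and immune markers (4 genes) summed to 6.97 to 14.3 RPKM in WNT5A pools and 7.71 to 33.7 RPKM in controls, of which libraries 2, 3 and 6 had 14.7 to 33.7 RPKM. Oocyte markers (8 genes) summed to 3.43 to 26.3 RPKM in WNT5A pools and 2.07 to 21.6 RPKM in controls, and sperm markers (2 genes) to 0 to 2.89 RPKM in WNT5A pools and 0 to 10.6 RPKM in controls. The part of these other cell types in the results below was not tested.

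FGFR4 was the most abundant FGF receptor transcript in every library, and FGFR3 came next in all but control library 2. FGFR4 (ENSBTAG00000010543), which in human and mouse is the main receptor for FGF19-type ligands, had a lowest, median and highest level of 70.0, 83.7 and 109.8 RPKM in the WNT5A pools. In controls these were 23.0, 78.5 and 125 RPKM, with control library 3 lowest and control library 2 highest, so that the WNT5A pools lay inside the range of the controls. Its mean over all libraries exceeded that of 88.2% of the 12415 genes tested. FGFR3 (ENSBTAG00000007164), a receptor best known for restraining bone growth, had 13.5, 22.5 and 41.2 RPKM in the WNT5A pools in the same order. Its controls ran from 0 in library 2 through a median of 16.8 to 41.8 RPKM in library 4. The WNT5A pools thus lay inside the control range here too. In a bulk pool, fewer cells expressing a gene and less RNA per cell cannot be told apart.

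FGFR1 and FGFR2 were far lower. FGFR1 (ENSBTAG00000015457), which in the mouse blastocyst is the receptor of both epiblast and primitive endoderm, had a lowest, median and highest level of 0.662, 1.72 and 3.88 RPKM in WNT5A pools and of 0.691, 2.10 and 3.91 RPKM in controls. It was read in all 17 libraries, and the ranges of the groups nearly coincided. The top of the WNT5A range was library 12 alone, and the next WNT5A pool was at 1.93 RPKM. Of the 8 WNT5A pools, 1 lay above the control median of FGFR1. FGFR2 (ENSBTAG00000014064), which in the mouse is enriched in primitive endoderm, and which overlaps a long non-coding RNA gene in the RefSeq annotation of ARS-UCD2.0, had 0.184, 1.17 and 2.15 RPKM in WNT5A pools. In controls it was at 0 in libraries 2, 3 and 6 and reached 3.97 RPKM in library 9, with a median of 0.790 RPKM. All 8 WNT5A pools fell within the control range. FGFR4 exceeded FGFR3 in 17 of 17 libraries, FGFR3 exceeded FGFR1 in 16 of 17 (all but control library 2), and FGFR1 exceeded FGFR2 in 12 of 17, so the order of FGFR1 and FGFR2 was not fixed.

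**Figure D1:**
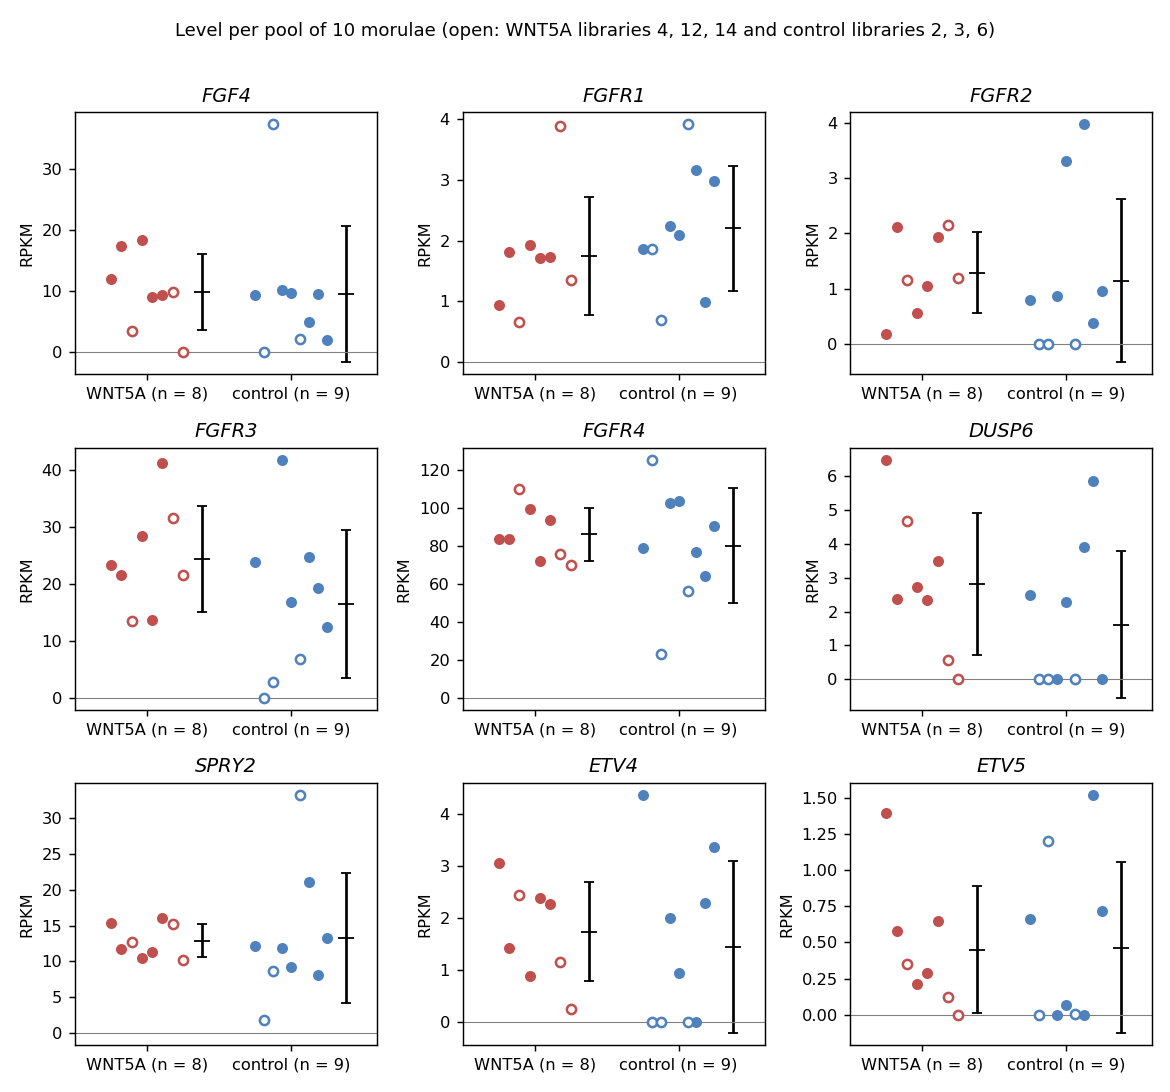
Level of each of the 9 measured genes in RPKM (vertical axes, 1 panel per gene) in 8 WNT5A pools, left, and 9 control pools, right. Points are libraries, open points are WNT5A libraries 4, 12 and 14 and control libraries 2, 3 and 6, and bars are the mean ± SD. The WNT5A pools of FGFR4 sit between 70.0 and 109.8 RPKM, inside the control range of 23.0 to 125 RPKM.

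Of the summed RPKM of the 4 receptors within a library, FGFR4 held 76.0% ± 6.83 in WNT5A pools (SD, n = 8) against 80.8% ± 9.16 in control pools (SD, n = 9). FGFR3 held 21.3% ± 6.14 in WNT5A pools (SD, n = 8) against 15.8% ± 8.91 in control pools (SD, n = 9). Such a share does not depend on how a library was scaled. FGFR1 held 1.57% in WNT5A pools and 2.42% in controls, and FGFR2 held 1.15% in WNT5A pools and 0.998% in controls. The group means of each share lay within 1 SD of each other. The most one-sided library was control 2, where FGFR4 held 98.5% and neither FGFR2 nor FGFR3 had a read. Without control libraries 2, 3 and 6 the difference in FGFR3 share, 5.47 points higher in WNT5A pools over all libraries, was 1.02 points.

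**Figure D2:**
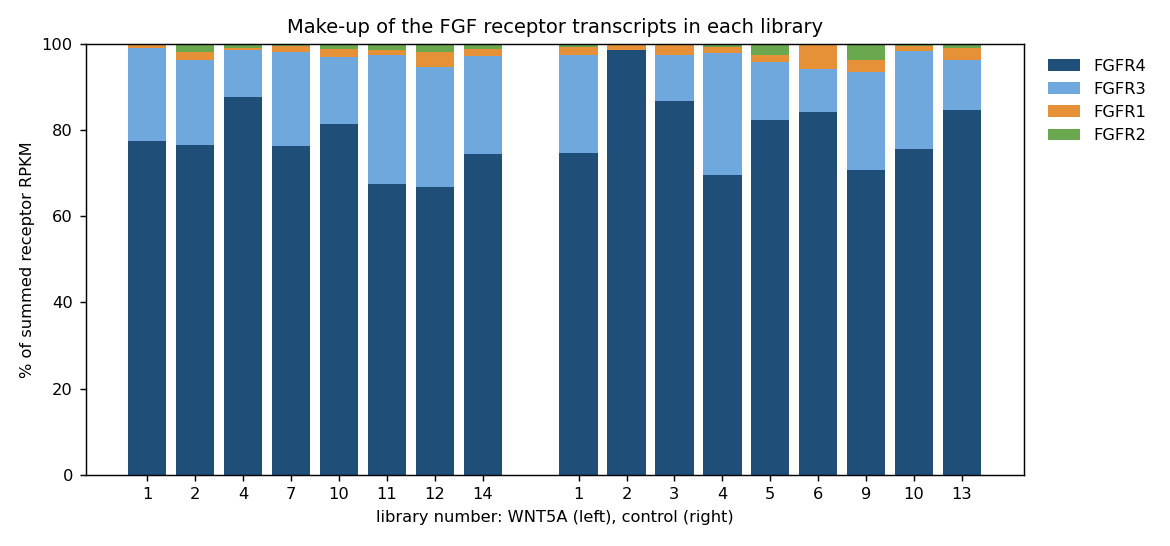
Share of each FGF receptor in the summed RPKM of the 4 receptors (vertical axis, %), 1 bar per library, with the 8 WNT5A libraries left and the 9 control libraries right. FGFR4 is the largest part of every bar, from 66.8% in WNT5A library 12 to 98.5% in control library 2.

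FGF4 (ENSBTAG00000012563), the one ligand gene of the set with a row, was moderately abundant and uneven between pools. Its level was 0 in WNT5A library 14, with a median of 9.50 and a highest value of 18.3 RPKM in WNT5A pools. In controls it ran from 0 in library 2 through a median of 9.30 to 37.3 RPKM in library 3, the highest value of any library. The medians of the groups were nearly equal. The FGF4 row has 621 exon bases, the shortest of the 9 genes, so its RPKM rests on fewer reads than that of a longer gene at the same level. In WNT5A libraries 4, 12 and 14 it averaged 4.40 RPKM, against 13.1 RPKM in the other 5 WNT5A pools.

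SPRY2 (ENSBTAG00000001774), whose protein restrains signalling from receptor tyrosine kinases to RAS, was the most abundant of the 4 ERK-responsive genes. Its lowest, median and highest levels were 10.3, 12.2 and 16.0 RPKM in WNT5A pools, and 1.84, 11.9 and 33.2 RPKM in controls. The SD was 2.31 RPKM in WNT5A pools (n = 8) and 9.06 RPKM in controls (n = 9), where library 2 was lowest and library 6 highest. In the 6 controls other than 2, 3 and 6 the SD was 4.56 RPKM. SPRY2 was read in all 17 libraries.

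DUSP6 (ENSBTAG00000004587), which encodes a cytoplasmic phosphatase that inactivates ERK, was low and absent from several pools. WNT5A pools ran from 0 in library 14 through a median of 2.54 to 6.48 RPKM in library 1. In controls the median was 0.00331 RPKM, a single read, because libraries 2, 4, 6 and 13 had none and library 3 had 1, whereas the other 4 controls had 2.28 to 5.84 RPKM. DUSP6 was thus above 3 reads in 7 of 8 WNT5A pools and 4 of 9 controls. ETV4 (ENSBTAG00000008333), an ETS factor of the PEA3 group, had 0.246, 1.85 and 3.05 RPKM as lowest, median and highest in WNT5A pools. In controls it was at 0 in libraries 2, 3, 6 and 9, had a median of 0.942 and reached 4.36 RPKM in library 1. ETV5 (ENSBTAG00000014915), of the same group, was lowest of all, at 0, 0.321 and 1.39 RPKM in WNT5A pools and 0, 0.0650 and 1.52 RPKM in controls. The highest DUSP6 value was in a WNT5A pool, the highest ETV4 and ETV5 values were in controls, and pools of both groups lay at the low end of ETV5.

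Ranked by the mean over 17 libraries, the order of the levels was FGFR4 (82.8 RPKM), FGFR3 (20.2), SPRY2 (13.1), FGF4 (9.63), DUSP6 (2.18), FGFR1 (1.99), ETV4 (1.58), FGFR2 (1.21) and ETV5 (0.457 RPKM). FGFR4 and FGFR3 were the only neighbours in this order whose means differed by more than the sum of their SDs. The means of the other 7 neighbouring pairs did not differ by more than that sum, which ignores that both genes were read in the same libraries. Within libraries, FGFR3 exceeded SPRY2 in 13 of 17, SPRY2 exceeded FGF4 in 12 and FGF4 exceeded DUSP6 in 14. DUSP6 exceeded FGFR1 in 10 of 17, FGFR1 exceeded ETV4 in 10, ETV4 exceeded FGFR2 in 9 and FGFR2 exceeded ETV5 in 12.

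Low levels in these libraries were often a mixture of pools with many reads and pools with none. FGFR2 had 0 reads in 3 libraries and at least 125 in the other 14. ETV4 had 0 reads in 4 libraries and at least 22 elsewhere, FGF4 had 0 in 2 and at least 77 elsewhere, and DUSP6 had 0 or 1 read in 6 and at least 52 elsewhere. At 3 reads or fewer stood 3 of the 72 gene and library pairs in WNT5A pools (DUSP6, FGF4 and ETV5 in library 14) and 18 of the 81 in controls. Control libraries 2, 3 and 6, with 136 to 158 M reads, held 13 of those 18. The pattern was common among low genes of the table. Of 3295 tested genes that averaged 1 to 4 RPKM, 73.1% had a library without a read, and of the 4 members in that range the same held for FGFR2, DUSP6 and ETV4 but not FGFR1. Of 3567 tested genes that averaged 5 to 20 RPKM, FGF4 and SPRY2 among them, 25.3% had such a library. For 22.5% of the 3567 it was found only among control libraries 2, 3 and 6, whereas FGF4 also lacked reads in WNT5A library 14. A count of 0 allows up to 3 reads, or 0.0155 to 0.0841 RPKM on a gene of 1 kilobase, for counting error only. The absences did not fall in the same pools for every gene. Control library 13 lacked DUSP6 and had 3.37 RPKM of ETV4, and control library 9 lacked ETV4 and had 3.89 RPKM of DUSP6.

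**Figure D3:**
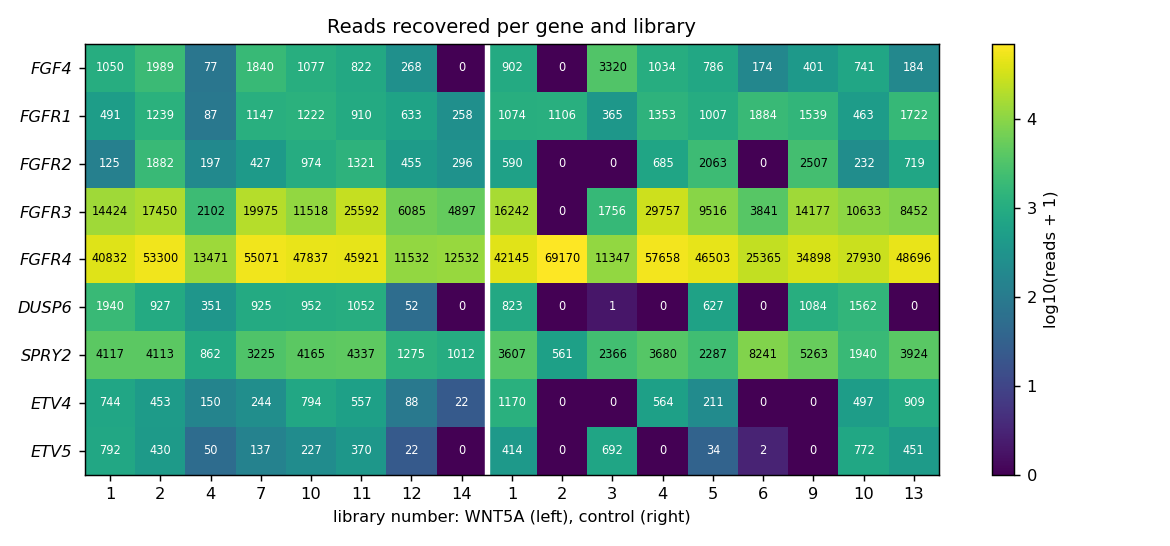
Reads recovered for each gene (rows) in each library (columns; 8 WNT5A libraries left of the white line and 9 control libraries right of it), printed in each cell and coloured by log10(reads + 1). FGFR4, SPRY2 and FGFR1 have reads in all 17 libraries, and 13 of the 21 cells with 3 reads or fewer belong to control libraries 2, 3 and 6.

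No member of the set differed between WNT5A and control pools beyond the spread between them. Of the 9 genes, 8 reached 0.5 RPKM in at least 8 libraries and were tested with limma on log2(RPKM + 1) among 12415 genes, and ETV5, which did so in 7, was not. None of the 8 passed an adjusted p of 0.05 (Benjamini-Hochberg over all genes tested), where 0.00805% of all tested genes did. None had an unadjusted p under 0.05, against 7.35% of all tested genes. In none did the groups fail to overlap, against 0.0161% of all. Fitted changes were above 0 for 7 of 8, against 62.3% of all genes tested, and their median was 0.30 on the log2 scale against 0.11.

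In the fit of log2(RPKM + 1) over all 17 libraries, FGFR3 had the largest log2 change of the tested members. It averaged 24.4 ± 9.25 RPKM in WNT5A pools (SD, n = 8) against 16.5 ± 12.95 RPKM in control pools (SD, n = 9). Its log2 change was 1.04 ± 0.54 (SE; 95% interval -0.08 to 2.16; limma adjusted p = 0.681). Leaving out control library 2, in which FGFR3 was not read, gave 0.60, and leaving out control libraries 2, 3 and 6 gave 0.084. DUSP6 had the larger value without WNT5A libraries 4, 12 and 14 (1.14, against 1.11 for FGFR3). It also did without control libraries 2, 3 and 6 (0.27, against 0.084 for FGFR3). With 0.1 in place of 1 added to the RPKM of all 17 libraries, DUSP6 was again larger (1.91, against 1.46 for FGFR3). FGF4 had the larger value without all 6 libraries (0.81, against 0.16 for FGFR3). DUSP6 averaged 2.83 ± 2.10 RPKM in WNT5A pools (SD, n = 8) against 1.61 ± 2.16 RPKM in control pools (SD, n = 9), and its log2 change was 0.74 ± 0.47 (SE; 95% interval -0.24 to 1.73; limma adjusted p = 0.721). This was 0.27 without control libraries 2, 3 and 6, 1.14 without WNT5A libraries 4, 12 and 14, and 0.66 without all 6.

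The most evenly measured gene, FGFR4, averaged 85.9 ± 14.02 RPKM in WNT5A pools (SD, n = 8) against 80.0 ± 30.2 RPKM in control pools (SD, n = 9). Its log2 change of 0.21 ± 0.24 (SE) had a 95% interval of -0.29 to 0.71 (limma adjusted p = 0.814), and was 0.0056 without control library 3 alone and 0.0026 without control libraries 2, 3 and 6. SPRY2 averaged 12.9 ± 2.31 RPKM in WNT5A pools (SD, n = 8) against 13.3 ± 9.06 RPKM in control pools (SD, n = 9). Its log2 change, 0.21 ± 0.34 (SE; 95% interval -0.50 to 0.92; limma adjusted p = 0.875), had the opposite sign to the difference of the means, and was -0.048 without control library 2 and 0.072 without control libraries 2, 3 and 6. FGF4, at 9.87 ± 6.22 RPKM in WNT5A pools (SD, n = 8) against 9.42 ± 11.2 RPKM in control pools (SD, n = 9), gave a fitted log2 change of 0.31 ± 0.62 (SE; 95% interval -0.98 to 1.605; limma adjusted p = 0.899). It was -0.029 without control library 2, 0.63 without control library 3, 0.096 without control libraries 2, 3 and 6 and 1.03 without WNT5A libraries 4, 12 and 14.

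ETV4 averaged 1.73 ± 0.952 RPKM in WNT5A pools (SD, n = 8) against 1.44 ± 1.65 RPKM in control pools (SD, n = 9), and its fitted log2 change was 0.38 (95% interval -0.42 to 1.18), which was -0.11 without control libraries 2, 3 and 6. FGFR2 averaged 1.29 ± 0.727 RPKM in WNT5A pools (SD, n = 8) against 1.14 ± 1.48 RPKM in control pools (SD, n = 9), with 0.28 (95% interval -0.43 to 0.99). It had -0.14 without those controls. FGFR1, the only tested member with a fitted value below 0, averaged 1.75 ± 0.969 RPKM in WNT5A pools (SD, n = 8) against 2.20 ± 1.03 RPKM in control pools (SD, n = 9), with -0.22 (95% interval -0.80 to 0.37). The limma adjusted p was 0.789 for ETV4, 0.824 for FGFR2 and 0.836 for FGFR1. ETV5 averaged 0.449 ± 0.438 RPKM in WNT5A pools (SD, n = 8) against 0.463 ± 0.590 RPKM in control pools (SD, n = 9), and a fit without the filter gave a log2 change of 0.032 (95% interval -0.44 to 0.50). The intervals reach a log2 change of 1.73 for DUSP6 and 2.16 for FGFR3, so a p above the threshold does not show equal levels. In the authors' deposited table all 9 genes had an FDR of 0.9997. Log2 fold changes there, also WNT5A over control, ran from -0.36 for FGFR1 to 0.81 for DUSP6, with FGFR3 at 0.63.

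**Figure D4:**
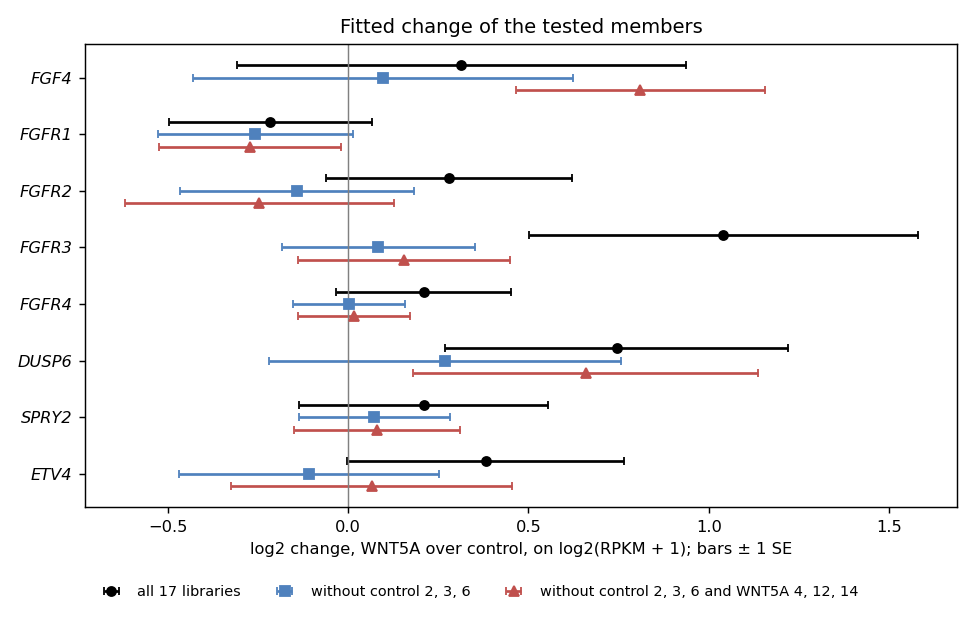
Fitted log2 change, WNT5A over control, on the log2(RPKM + 1) scale (horizontal axis) for the 8 tested genes, ± 1 SE. Black circles use all 17 libraries, blue squares leave out control libraries 2, 3 and 6, and red triangles also leave out WNT5A libraries 4, 12 and 14; FGFR3 moves from 1.04 to 0.084 and 0.16.

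The rest of the pathway was read from lists of ligands, co-receptors, adaptors, kinases, feedback inhibitors and nuclear effectors. Of 93 such genes, 81 had a row and 62 were tested. Fitted changes were above 0 for 44 and below 0 for 18, and none passed in limma. Of all genes tested, 62.3% were above 0, and the counts of each list below stand against that share. Of the 62, 4 had an unadjusted p under 0.05 in limma, against 7.35% of all genes tested. The median log2 change was 0.22, against 0.11 for all genes tested. Without control libraries 2, 3 and 6 these medians were 0.0096 and 0.0045, and 50.7% of all genes tested were above 0.

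Other secreted ligands were scarce. Of 16 listed, 8 had a row and 4 were tested, of which 3 had fitted changes above 0. FGF22 averaged 2.12 ± 1.803 RPKM in WNT5A pools (SD, n = 8) against 4.44 ± 4.92 RPKM in control pools (SD, n = 9), and FGF8, a patterning ligand of later embryos, 2.26 ± 3.67 RPKM and 1.47 ± 1.96 RPKM in the same groups. The log2 change of FGF8, 0.22, was -0.14 without control libraries 2, 3 and 6. FGF19, a hormone-like ligand of FGFR4 in human, averaged 2.50 ± 2.07 RPKM in WNT5A pools (SD, n = 8) against 1.18 ± 2.41 RPKM in control pools (SD, n = 9). Its log2 change was 0.88 ± 0.48 (SE), with a limma adjusted p of 0.690. Control libraries 2, 3 and 6 had no FGF19 read, and the shallow WNT5A libraries 4, 12 and 14 averaged 0.312 RPKM. Without those controls the log2 change of FGF19 was 0.57, and without those WNT5A libraries it was 1.595. With all 6 left out it was 1.28, larger than over all libraries. FGF9 averaged 1.56 RPKM in WNT5A pools and 1.36 RPKM in controls.

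Co-receptors and heparan sulphate genes had 10 of 11 tested members above 0, against 62.3% of all genes tested. Their median log2 change was 0.36. Without control libraries 2, 3 and 6 that median was 0.17. SDC4, a heparan sulphate proteoglycan of the cell surface, was the most abundant tested gene of the list, at 67.4 ± 8.37 RPKM in WNT5A pools (SD, n = 8) against 59.2 ± 7.79 RPKM in control pools (SD, n = 9; limma adjusted p = 0.734). EXT2, which builds the heparan sulphate chain, averaged 27.2 RPKM in WNT5A pools and 25.01 RPKM in controls. The glypican gene GPC1 had a log2 change of 0.74 and HS6ST1, a heparan sulphate sulphotransferase gene, 0.67, both without passing (limma adjusted p = 0.717 for GPC1 and 0.726 for HS6ST1). Leaving out control libraries 2, 3 and 6 gave 0.22 for GPC1 and -0.0046 for HS6ST1. Leaving out WNT5A libraries 4, 12 and 14 as well gave 0.16 for GPC1 and 0.32 for HS6ST1.

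Among receptor-proximal adaptors, all 12 were tested and 8 had changes above 0. GRB2, which links receptors to the RAS exchange factor SOS, was abundant, at 129.6 ± 12.4 RPKM in WNT5A pools (SD, n = 8) against 133 ± 22.6 RPKM in control pools (SD, n = 9), and its log2 change was -0.02. CRKL averaged 58.6 ± 18.2 RPKM in WNT5A pools (SD, n = 8) against 71.3 ± 15.8 RPKM in control pools (SD, n = 9). FRS2, the docking protein of FGF receptors, was low, at 1.007 ± 0.688 RPKM in WNT5A pools (SD, n = 8) against 0.281 ± 0.440 RPKM in control pools (SD, n = 9). Its log2 change was 0.64 ± 0.25 (SE; limma adjusted p = 0.673). FRS2 levels averaged 1.76 RPKM in the shallow WNT5A libraries 4, 12 and 14, 0.558 RPKM in the other 5 WNT5A pools, and 0 in control libraries 2, 3 and 6. With these 6 left out its log2 change came to 0.18. CRK, an adaptor related to CRKL, had 0.71 ± 0.27 (SE; limma adjusted p = 0.673), and 0.22 without the 6.

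In the RAS to ERK cascade 13 of 15 genes were tested, with 8 above 0 and 5 below, and a median of 0.086. ARAF was the most abundant RAF kinase transcript, at 113 ± 29.6 RPKM in WNT5A pools (SD, n = 8) against 109.2 ± 24.3 RPKM in control pools (SD, n = 9). BRAF averaged 1.84 ± 0.974 RPKM in WNT5A pools (SD, n = 8) against 0.938 ± 0.913 RPKM in control pools (SD, n = 9). Control libraries 2, 3 and 6 averaged 0.137 RPKM of BRAF and the other 6 controls 1.34 RPKM. The log2 change of BRAF, 0.61, was 0.29 without those 3 and 0.14 after quantile normalization. It was 0.70 without WNT5A libraries 4, 12 and 14, and 0.38 without the 6 libraries set apart. MAP2K2, which encodes a MEK kinase, averaged 61.5 RPKM in WNT5A pools and 71.7 RPKM in controls.

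Other feedback inhibitors had 9 of 14 genes tested, 6 above 0 and 3 below. DUSP1, a nuclear phosphatase gene of the immediate early class, was 77.2 times as abundant as DUSP6 by the mean over 17 libraries, at 147 ± 41.2 RPKM in WNT5A pools (SD, n = 8) against 188 ± 47.8 RPKM in control pools (SD, n = 9). Its log2 change was -0.37 ± 0.19 (SE; limma adjusted p = 0.676), and -0.10 without WNT5A libraries 4, 12 and 14, in which it averaged 103 RPKM against 172 RPKM in the other 5. DUSP5, another ERK phosphatase gene, averaged 22.4 RPKM in WNT5A pools and 28.2 RPKM in controls, with -0.31 overall and 0.04 without those 3 libraries. SPRED1, of the Sprouty-related family, had 0.64, and IL17RD, a membrane inhibitor of FGF signalling also called SEF, had 0.55, with limma adjusted p = 0.676 for each. SPRED1 averaged 6.51 RPKM in WNT5A libraries 4, 12 and 14 and 3.02 RPKM in the other 5, and its log2 change was 0.31 without those 3 and 0.12 without the 6 libraries set apart. IL17RD had no read in control libraries 2, 3 and 6, and its log2 change was 0.37 without them. It was 0.62 without WNT5A libraries 4, 12 and 14, 0.44 without the 6 libraries set apart and 0.16 after quantile normalization.

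Other ERK-responsive genes and nuclear effectors, immediate early genes and ETS factors among them, made up the last list. Of its 18 genes 13 were tested, 9 above 0 and 4 below. IER2 averaged 123 ± 46.8 RPKM in WNT5A pools (SD, n = 8) against 132 ± 23.3 RPKM in control pools (SD, n = 9), and IER3 114 ± 42.5 RPKM and 126 ± 66.7 RPKM in the same groups. In WNT5A libraries 4, 12 and 14 IER2 averaged 70.7 RPKM, against 154 RPKM in the other 5, and its log2 change, -0.21 over all libraries, was 0.23 without those 3. ETS2 and PHLDA1 had log2 changes of 0.64 and 0.75 (limma adjusted p = 0.687 and 0.677). Without the 6 libraries these were 0.15 and 0.35.

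**Figure D5:**
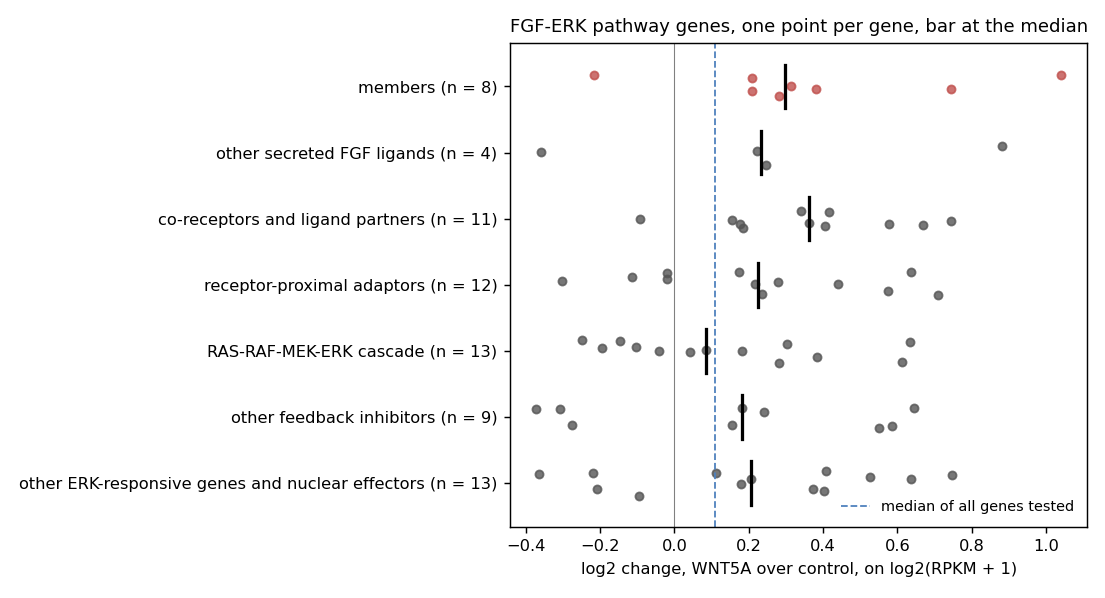
Fitted log2 change, WNT5A over control, on the log2(RPKM + 1) scale (horizontal axis) of the 8 tested members (red) and 62 other tested pathway genes (grey), 1 point per gene, by list. Black bars are list medians, and the dashed line is the median of all 12415 genes tested, 0.11; the list medians run from 0.086 to 0.36.

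Genes that varied most like each tested member over the 17 libraries were ranked by Spearman's rho of log2(RPKM + 1), as a description only. Each rho is followed here by its value over the 14 libraries without control libraries 2, 3 and 6. The 3 nearest were picked from all tested genes with a symbol, so high values are expected from the selection alone. The 14 libraries are part of the 17, so the value over them is no separate check. No test was run on these likenesses. The companions of FGFR3 were FAN1 (0.93 and 0.88), SNX18 (0.93 and 0.89) and TIAM1 (0.92 and 0.87). DUSP6 was followed most closely by ZNF350 (0.92 and 0.88), by HAND1 (0.91 and 0.85), a transcription factor gene of trophoblast and heart, and by USP53 (0.87 and 0.81). For ETV4 the nearest were ZNF555 (0.92 and 0.91), ABCG5 (0.86 and 0.76) and TRIM6 (0.85 and 0.76). SPRY2 was nearest to MCM3AP (0.90 and 0.90), EFCAB14 (0.85 and 0.76) and DOCK1 (0.85 and 0.73). The companions of FGFR4 were BCL2L14 (0.86 and 0.75), ZNF263 (0.85 and 0.74) and RBAK (0.84 and 0.72), and those of FGFR2 were DNAAF2 (0.84 and 0.74), APPL2 (0.82 and 0.67) and ARID2 (0.82 and 0.67). Those of FGFR1 were ZNF165 (0.83 and 0.83), SLC45A4 (0.82 and 0.85) and PPP2R5E (0.77 and 0.75). FGF4 was nearest to BUD13 (0.82 and 0.71), VSTM2A (0.82 and 0.71) and KLHL42 (0.82 and 0.80). No member was among the 3 nearest genes of another member.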

How the data were processed

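RPKM per gene and library, beside exon length, were deposited by the authors in a single table, per the file headers. FastQC, HISAT2, featureCounts, edgeR and the assembly ARS-UCD1.2 are named in the submitters' processing notes. The sources used here give no versions, strand setting or annotation, so reads of overlapping or antisense genes cannot be told apart. Libraries were made with a stranded mRNA kit, per the labels' protocols. The same deposited table holds log2 fold changes and log2 CPM, a likelihood ratio score, and p-values and FDR of the authors, of which the log2 fold change and FDR of members and of MAPK3 are printed.

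RPKM times exon length fell on whole multiples of 1 read in 100% of values (tolerance 0.01 reads), which gave the reads per library. RPKM are normalized values, so limma 3.58.1 (R 4.3.3; moderated with trend and robust, two-sided) was run on log2(RPKM + 1). Genes needed 0.5 RPKM or more in 8 or more libraries, which 12415 met and 4752 did not, and p-values were adjusted over those that met it. Fold changes on this scale understate changes of low genes. The fit was also run on simulated data, whose outcome is not reported here. Residuals were shuffled within each gene there, which removes effects shared by the genes of a library. That run therefore cannot speak to the libraries set apart. Alternatives were a pseudocount of 0.1, no filter, quantile normalization, rescaling of libraries, leaving out libraries and a replicate block. Members, lists, libraries set apart and tests were chosen with earlier results of these data known. Pathway genes named are the 2 most abundant tested genes of each list and the 2 with the smallest unadjusted p, and for likeness the 3 nearest genes with a symbol. A gene that this rule names is not reported here. MAPK3 was named after its values were seen. Without molecular identifiers, reads are not independent molecules. Figures used matplotlib 3.10.9 (Python 3.11.15). Positions and sequences were not used here.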

Additional observations from a re-analysis of the deposited data

Results flagged for a closer look

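In 3 of 18 sets of values (9 genes in 2 groups) a single library stood far from its group, by its gap to the next value over the range. The cutoff flags about 1 in 20 groups of normally distributed values. RPKM here are skewed, with some libraries at 0, so that rate need not hold and no excess of flags is shown. All 3 flagged values were the highest of their group. FGF4 was at 37.3 RPKM in control library 3, and the next control was at 10.2 RPKM. FGFR1 was at 3.88 RPKM in WNT5A library 12, above the next WNT5A pool at 1.93 RPKM, and without that library its log2 change was -0.34. ETV5 was at 1.39 RPKM in WNT5A library 1, against 0.646 RPKM in the next WNT5A pool.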

How the results depend on the processing

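No member and no other pathway gene passed under any alternative run. Among members the smallest adjusted p was 0.475, for FGFR3 in one of the fits that leave out a single library. Over 8 alternatives for each of 8 tested members, 59 of 64 fitted changes kept their sign. Dropping the filter leaves each fitted change as it was, so under that alternative no sign could turn. FGFR2 turned to -0.12 after quantile normalization, -0.14 without control libraries 2, 3 and 6, and -0.25 without these and WNT5A libraries 4, 12 and 14. ETV4 turned to -0.11 without control libraries 2, 3 and 6, and FGFR4 to -0.057 with a replicate block on the 4 shared numbers. The replicate block gave 0.75 for SPRY2, 0.78 for FGF4, 1.08 for DUSP6, 0.45 for FGFR2 and 0.61 for FGFR3. The pseudocount of 0.1 gave 1.91 for DUSP6 (limma adjusted p = 0.649), 1.46 for FGFR3, 1.39 for ETV4 and 1.04 for FGFR2. For FGFR1, quantile normalization gave -0.52 (limma adjusted p = 0.771). Leaving out 1 library at a time gave -0.029 to 0.75 for FGF4 and -0.048 to 0.40 for SPRY2, and no sign change in the other 6, although FGFR1 ran from -0.34 to -0.12, FGFR2 from 0.17 to 0.46, FGFR3 from 0.60 to 1.28 and FGFR4 from 0.0056 to 0.30. Over all genes, 1 gene passed; the count was 0 with no filter, after quantile normalization, without either set of 3 libraries, without all 6 and with the replicate block, and 0 to 2 when 1 library was left out. The median of all genes tested, 0.11, was -0.013 after quantile normalization, and the share of fitted changes above 0, 62.3%, was then 48.4%. Same-numbered pools deviated together weakly (correlations of 0.022 to 0.22, not all over 0.1). Among the controls with shared numbers, WNT5A pools 1, 4 and 10 nonetheless correlated best with the control of their own number. WNT5A pool 2 correlated best with control 1. The main fit did not take the numbers as pairs, and whether they are pairs is not settled by these values. Patchy detection of low genes, and the 34.0 M reads of the shallowest library, limit precision.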

Other observations

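MAPK3, which encodes ERK1, did not reach the level needed for the test and was named here after its values were seen. It had 6.44, 10.3 and 5.54 RPKM in WNT5A libraries 4, 12 and 14 and 0.146 to 0.543 RPKM in the other 5 WNT5A pools, against 0 to 0.578 RPKM in controls. The 5 deeper WNT5A pools thus lay inside the range of the controls. In the authors' deposited table MAPK3 had a log2 fold change of 3.22 and an FDR of 0.0989.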
